A study of Drosophila melanogaster with 2 samples.

Results

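A set of 8 genes of the heat shock system was examined in a chromatin immunoprecipitation sequencing (ChIP-seq) study of the glial transcription factor Repo in *Drosophila melanogaster* embryos. They were chosen by symbol, with earlier results of these data known: Hsp83, Hsp22, Hsp23, Hsp26, Hsp27, Hsf, DnaJ-1 and Hsc70-4. All 8 of these symbols were found among the 13945 protein-coding genes of the annotation used. The embryos came from a transgenic line that stably expresses Repo with green fluorescent protein (GFP) at its C-terminus, and the tag was precipitated with anti-GFP. The labels describe an insertion targeting repo and do not say which promoter drives the tagged protein. Whole embryos of 0 to 24 h and of both sexes were pooled, sonicated to 200 to 800 bp, and sequenced as 1 group of 2 biological replicates, numbered 1 and 3. Both replicates share genotype and stage, the labels mention no heat treatment, and neither another genotype nor another stage or treatment is part of the data used. Glia are one of many cell types in such embryos, and a peak cannot be tied to a cell type.

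Heat shock proteins are molecular chaperones, which bind unfolded proteins and help them to fold or keep them from aggregating. In *Drosophila* many of their genes are switched on within minutes of heating by the heat shock factor encoded by Hsf. This factor binds as a trimer to the heat shock element, a run of NGAAN units in alternating orientation. Several of these promoters are also known for GAGA factor sites and for a polymerase that pauses just downstream of the start. Some chaperone genes, including Hsp83 and Hsc70-4, are also transcribed strongly in unheated cells, and the small heat shock genes are active in particular tissues during development. Repo is a homeodomain protein of glia, with CAATTA as its reported site.

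The sequences at which the results turn are given first, 5′ to 3′ on the strand of the gene, from the RefSeq genome sequence of build dm6. The 250 bases upstream of Hsp27, Hsp26 and Hsp23 are shown because the first pair are the bound promoters of the small heat shock gene cluster and the third is a weakly listed promoter of the same cluster. Capitals mark matches on either strand to CAATTA, to the GAGA factor site GAGAG, to the TATA box TATAAA, and to the heat shock element with at least 8 of its 9 defined letters. They lie at 3L:9383813-9384062 (plus strand) for Hsp27, 3L:9377428-9377677 (minus strand) for Hsp26 and 3L:9381632-9381881 (plus strand) for Hsp23. The summit of the optimal peak falls on base 142 of the Hsp27 sequence and on base 167 of the Hsp26 sequence.
Hsp27 upstream: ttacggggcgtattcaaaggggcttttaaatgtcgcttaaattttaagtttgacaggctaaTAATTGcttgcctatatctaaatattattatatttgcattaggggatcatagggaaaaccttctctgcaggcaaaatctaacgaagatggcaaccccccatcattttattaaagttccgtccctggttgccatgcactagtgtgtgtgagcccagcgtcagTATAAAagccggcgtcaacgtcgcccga
Hsp26 upstream: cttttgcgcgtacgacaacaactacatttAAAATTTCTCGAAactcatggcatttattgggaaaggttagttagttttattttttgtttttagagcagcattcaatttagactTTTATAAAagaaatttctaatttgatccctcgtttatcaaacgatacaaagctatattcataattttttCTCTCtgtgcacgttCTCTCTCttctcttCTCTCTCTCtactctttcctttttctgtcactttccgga
Hsp23 upstream: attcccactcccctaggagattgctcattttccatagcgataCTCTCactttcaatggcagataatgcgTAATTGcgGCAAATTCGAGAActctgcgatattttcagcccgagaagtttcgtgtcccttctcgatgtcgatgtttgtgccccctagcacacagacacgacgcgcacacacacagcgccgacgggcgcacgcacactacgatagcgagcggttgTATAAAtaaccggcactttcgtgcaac

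Windows of 30 bases are shown next for 7 of the 8 genes. Each holds the place with the most overlapping heat shock element matches near a start. Every annotated start was searched from 500 bp upstream to 50 bp downstream for matches with 8 or more letters. Such matches were found at these 7 genes, against 18.5% of all protein-coding genes. TATAAA was found in the same stretch at all 8 genes, against 68.7%, so the element is not the only sequence most of them share. Capitals mark the letters from the first to the last base of the matches. The windows lie at 3L:3193137-3193166 (plus) for Hsp83, 3L:9373902-9373931 (plus) for Hsp22, 3L:9381469-9381498 (plus) for Hsp23 and 3L:9377411-9377440 (minus) for Hsp26. Those of Hsp27, DnaJ-1 and Hsc70-4 lie at 3L:9383709-9383738 (plus), 3L:5752183-5752212 (minus) and 3R:15243041-15243070 (plus). The last line is the TATA box of Hsp83, at 3L:3193174-3193203 (plus), with the box in capitals.
Hsp83: aGAAGCCTCTAGAAGTTTCTAGAGACTTCc
Hsp22: agggcgaaGAAAATTCGAGAGagtgccggt
Hsp23: gcaGTCTCGAAGTTTCGCGAATTTACtcca
Hsp26: gtcactTTCCGGACTCTTCTAGAAaagctc
Hsp27: agaaaaGAAATGTCAAGAAGTTTCtggttc
DnaJ-1: atccgaGAAGCATCCAGAAATTTCgacgta
Hsc70-4: gcaaatTAAGATTCTAGAAACTTTggaagt
Hsp83 TATA box: gtcgggtttttcTATAAAagcagacgcgcg

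Of the 8 genes, 4 carried a peak in the optimal list, the authors' set of peaks kept after thresholding on the irreproducible discovery rate (IDR). A gene is called bound here if at least 1 optimal summit falls in the stretch that begins 2000 bp before the gene and closes at its end. By this rule 4 of 8 were bound, against 19.7% of all protein-coding genes: Hsp83, Hsp27, Hsp26 and DnaJ-1. An optimal summit lay within 500 bp of an own transcription start site (TSS) in 3 of the 8, against 13.6% of all protein-coding genes, since the peak counted for DnaJ-1 lies at the start of its neighbour Usp47. Hsp22, Hsp23, Hsf and Hsc70-4 were not bound. Heat shock genes outside the 8 did not share this: 0 of 7 heat-induced Hsp70 genes and 0 of 7 further small heat shock or 67B genes were bound. For the near-identical Hsp70 copies that count is uncertain, as described below. With only 8 genes, chosen by name with earlier results of these data known, these counts are descriptions and no test was made.

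The optimal list is the upper end of a longer list made from both replicates together, the pooled list, which holds 30000 peaks and includes background. Each replicate also has its own list of 30000. In the pooled list all 8 genes had a summit in the same stretch, against 73.4% of protein-coding genes, and all 8 had one within 500 bp of an own TSS, against 52.9%. The 4 genes that were not bound thus had peaks there too, with signals below the lowest of the optimal list. The genes held 1 to 4 pooled peaks each with a median of 2.5, against 0 to 64 with a median of 2 over all protein-coding genes. When only the 2697 highest peaks of each replicate's own list were used, the number of optimal peaks, the same 4 genes had a summit in both replicates (15.4% of all protein-coding genes did). Since these replicates were the input of the optimal list, the replicate lists are no independent check of it.

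Each list gives a signal value per peak, which comes from the authors' peak caller on a scale that is not stated, and is used here only to rank and describe peaks within a list. The lowest optimal signal was 84.0, the highest 1703 and the median 123. The lists hold no read counts, so the depth of the libraries is unknown and no interval for it can be given. The error available is the difference between the 2 replicates. Over the 2681 optimal peaks found in both replicates, the larger rank was a median of 1.53 times the smaller, and the replicates' summits lay a median of 24 bp apart with an upper quartile of 50 bp. Nothing in the labels says whether the replicates came from separate cages or collections beyond their being called biological replicates.

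**Figure D1:**
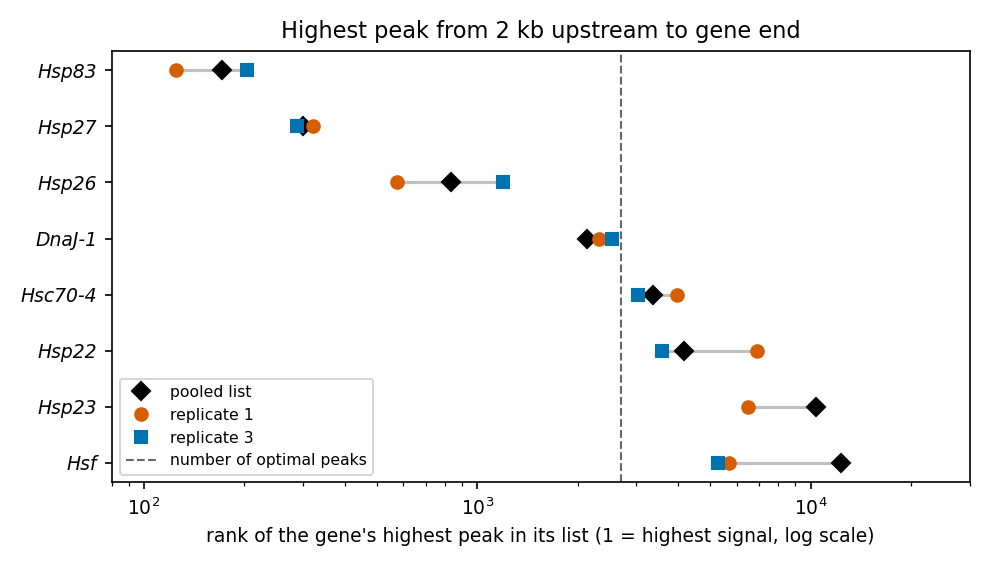
Rank of the highest peak of each gene, from 2 kb upstream to the gene end, in the pooled list (black diamonds), replicate 1 (orange circles) and replicate 3 (blue squares). The x axis is the rank in a list of 30000 on a log scale, grey lines join the lists, and the dashed line marks 2697, the number of optimal peaks. The markers of Hsp83, Hsp27, Hsp26 and DnaJ-1 all lie left of the line and those of the other 4 genes all lie right of it, and Hsp23 has no marker for replicate 3.

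Across the 8 genes the order of the highest peaks held in both replicates at its upper end and not at its lower end. The replicate ranks of Hsp83 (125 and 204), Hsp27 (321 and 288), Hsp26 (573 and 1191) and DnaJ-1 (2313 and 2543) did not overlap between neighbours in the order. Hsc70-4 followed with 3964 in replicate 1 and 3042 in replicate 3, from 2 different peaks of the gene. Its range overlapped that of Hsp22, with 6879 and 3583, and that of Hsp22 in turn covered that of Hsf, with 5706 and 5286. The Hsf ranks, too, came from 2 different peaks of the gene, so their closeness is no agreement on 1 peak. Hsp23 ranked 6487 in replicate 1 and had no peak in replicate 3. Within each replicate Hsc70-4 ranked above Hsp22, Hsf and Hsp23. Hsp22 ranked above Hsf in replicate 3 and below it in replicate 1. Hsp23 ranked below Hsf in the replicates but above it in the pooled list (10347 for Hsp23 and 12298 for Hsf).

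Hsp83 encodes the cytosolic Hsp90, a chaperone of kinases and steroid receptors that is abundant without heat and is induced further by it. The gene (FBgn0001233) lies at 3L 3192969 to 3197059 on the plus strand and has annotated starts at 3192969 and 3193216. It had the highest peak of the 8 genes, a promoter peak at 3L 3192995 to 3193218, 224 bp wide, with its summit at 3193094. The optimal signal was 319, rank 171 of 2697. In the replicates' own lists the signal was 167 (rank 125) in replicate 1 and 164 (rank 204) in replicate 3, a rank difference of 1.63 times. Of the 2681 optimal peaks found in both, 44.5% differed more. Only 232 protein-coding genes (1.66%) had a higher pooled peak in their own stretch.

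The summit of this peak lay between the annotated starts of Hsp83. It was 122 bp upstream of the start at 3193216 and 125 bp downstream of the start at 3192969. The replicates' summits were 34 bp apart, at 3193082 in replicate 1 and 3193116 in replicate 3, and fell on either side of the midpoint between the starts. Replicate 1's summit was therefore nearest the upstream start (113 bp downstream of it) and replicate 3's nearest the downstream start (100 bp upstream of it). The heat shock element matches printed above lay inside the peak, 44 to 59 bp from the summit and 63 to 78 bp upstream of the start at 3193216. They form 4 overlapping matches over 28 bp, each with 8 of the 9 letters. The printed TATA box lay 30 bp upstream of the same start and 92 bp from the summit, also inside the peak. CAATTA was present 72 bp upstream of the other start, 192 bp from the summit and outside the peak. The same promoter held TATCGATA, the site of the promoter factor Dref, 300 bp from the summit and outside the peak.

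Another optimal peak lay in the intron of Hsp83 (3193368 to 3194498), at 3L 3194117 to 3194512 with its summit at 3194315, 1099 bp downstream of the nearer start. Its signal was 120, rank 1413. The signal was 48.2 (rank 2218) in replicate 1 and 71.7 (rank 1164) in replicate 3, and the summits were 9 bp apart. Both optimal peaks also fall in the upstream stretch of CG14965, a gene on the opposite strand, though an Hsp83 start is the nearest to both. The remaining pooled peaks of Hsp83 had signals of 40.2 (rank 11889, in a coding exon of CG14965) and 37.0 (rank 14307, in a coding exon of Hsp83). The promoter peak stood above the other peaks of the gene in every list.

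The small heat shock proteins are relatives of alpha-crystallin that hold unfolded proteins in a soluble state. Genes for 4 of them are members: Hsp22, Hsp23, Hsp26 and Hsp27, which lie together at cytological region 67B, within 14184 bp of 3L that hold 8 protein-coding genes. The other 4 are Hsp67Ba, Hsp67Bc, CG4461 and CG4456, whose older symbol is Hsp67Bb. This cluster held 2 optimal peaks, one at Hsp26 and one at Hsp27, and 8 pooled peaks. Replicate 1's list had 9 peaks in the cluster and replicate 3's had 6. No peak of any list was counted for more than 1 of the 4 members. The stretches of Hsp23 and Hsp27 share 703 bp, and 0 peaks of any list had a summit there.

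**Figure D2:**
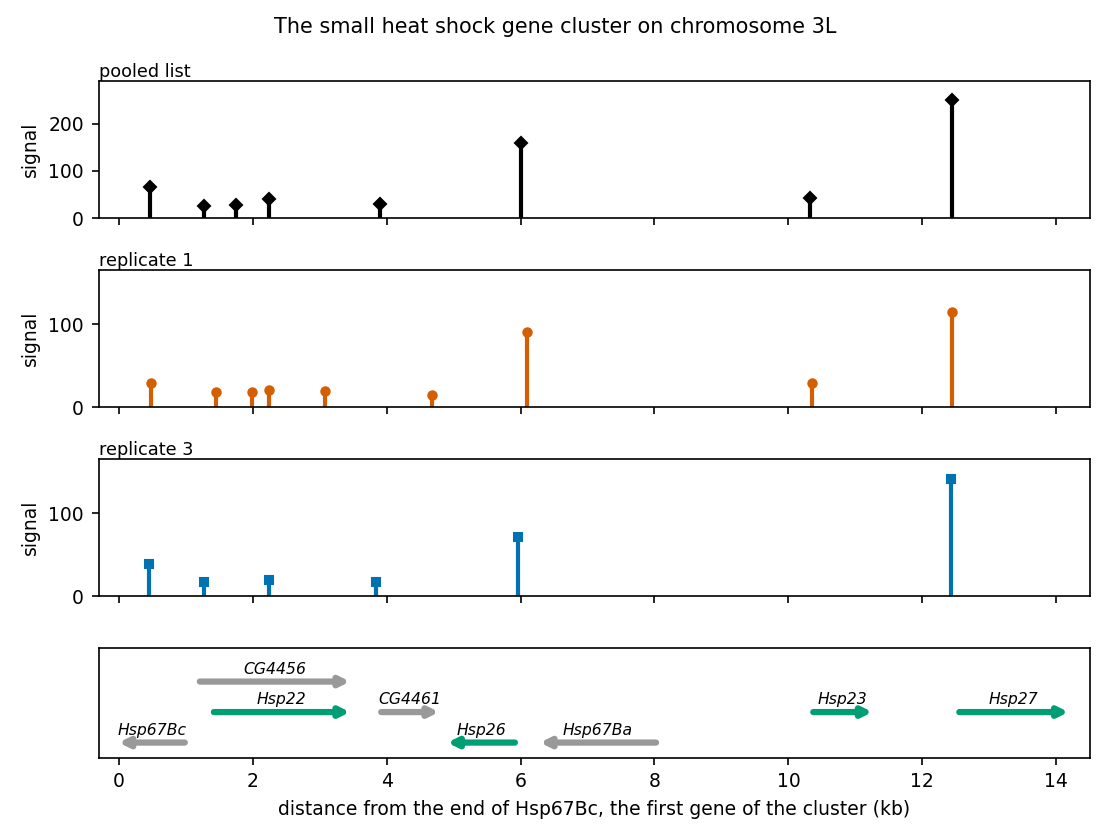
Peaks of the pooled list and of replicates 1 and 3 in the small heat shock gene cluster on 3L, with the signal value of each peak (y axis, authors' scale not stated) against the distance of its summit from the end of Hsp67Bc in kb. Arrows show the 8 genes and their strand, green for Hsp22, Hsp23, Hsp26 and Hsp27. In the pooled list the peaks at Hsp27 (251) and Hsp26 (159) are the tallest and the other 6 lie between 26.6 and 66.5, and the same pair is tallest in each replicate.

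Hsp27 (FBgn0001226, 3L 9384063 to 9385694, plus strand) had the highest peak of the cluster. Its promoter peak at 3L 9383832 to 9384033, 202 bp wide, had a signal of 251, rank 299. The signal was 114 (rank 321) in replicate 1 and 141 (rank 288) in replicate 3. This rank difference of 1.11 times was exceeded by 85% of the optimal peaks found in both replicates. The summit at 9383954 lay 109 bp upstream of the single annotated start, with replicate summits 104 and 128 bp upstream. Of all protein-coding genes, 402 (2.88%) had a higher pooled peak in their stretch. This was the only bound gene of the 8 with CAATTA within 100 bp of its summit. The match, in capitals as TAATTG in the printed sequence, lay 75 bp from the summit and 189 bp upstream of the start. The heat shock element matches of Hsp27 lay 343 to 348 bp upstream, 222 to 227 bp from the summit and outside the peak.

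Hsp26 (FBgn0001225, 3L 9376418 to 9377427, minus strand) has annotated starts at 9377427 and 9377375. It had a promoter peak at 3L 9377313 to 9377708 with a signal of 159, rank 836. The signal was 90.8 (rank 573) in replicate 1 and 71.0 (rank 1191) in replicate 3. The pooled summit at 9377511 lay 84 bp upstream of the start at 9377427, the nearer one. The replicates placed it differently, 187 bp upstream of that start in replicate 1 and 48 bp upstream in replicate 3. This gap of 139 bp was exceeded at 2.91% of the optimal peaks, and the rank difference of 2.08 times at 25.9%. The replicates' summits of Hsp27 and Hsp83 lay closer together, 24 and 34 bp apart. A run of 6 GAGAG matches, printed above as CTCTC, lay 16 to 49 bp from the pooled summit, and replicate 3's summit at 9377475 fell within it. The peak held 8 GAGAG matches and 3 heat shock element matches in all, the heat shock elements 77 to 125 bp from the summit. Of all protein-coding genes, 1052 (7.54%) had a higher pooled peak.

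Hsp23 (FBgn0001224, 3L 9381882 to 9382765, plus strand) lies between these genes and was not bound. It had 1 pooled peak, with a signal of 42.7 (rank 10347) and its summit 49 bp upstream of the start. Replicate 1 listed this peak at 29.5 (rank 6487), 12 bp upstream, and replicate 3 listed none in the stretch. The Hsp23 promoter printed above held 1 CAATTA match, 1 GAGAG match, 1 TATA box and 1 heat shock element match, all inside this weak peak. The peak is 396 bp wide, against 202 bp for that of Hsp27, and these matches lay 22 to 155 bp from its summit. Being inside a peak is thus not comparable between these genes. A heat shock element with all 9 letters, the centre of the printed 30-base window, lay 405 bp upstream.

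Hsp22 (FBgn0001223, 3L 9372931 to 9374964, plus strand) was not bound either. Its highest pooled peak, with a signal of 66.5 (rank 4182; 28.8 in replicate 1 and 38.3 in replicate 3), had its summit in a coding exon of Hsp67Bc, 949 bp upstream of Hsp22. The highest peak near its own starts lay 238 bp upstream of the start at 9373997, with a signal of 41.7 (rank 10908). The signals there were 20.6 in replicate 1 and 19.4 in replicate 3, and the summits were 2 bp apart. This peak held 11 GAGAG matches, the nearest 14 bp from the summit, and 1 heat shock element match 151 bp from it. The other pooled peaks had signals of 28.9 and 26.6. Hsp22 and CG4456 share their end and much of their sequence, so peaks in the body cannot be given to either.

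Hsf (FBgn0001222, 2R 18130303 to 18134634, minus strand) encodes the heat shock transcription factor itself. It was not bound and had the lowest highest peak of the 8 genes in the pooled list. The 2 pooled peaks lay inside the gene, 687 bp downstream of the start in a coding exon (signal 39.6, rank 12298) and 421 bp downstream (signal 32.5, rank 18667). The peak in the exon ranked 8661 in replicate 1 and 5286 in replicate 3, with summits 175 bp apart. Replicate 1's summit of it fell in an intron, 883 bp downstream of the start. The other pooled peak ranked 5706 in replicate 1 and 20866 in replicate 3, with summits 141 bp apart. The start of Pcl, which encodes a Polycomb group protein, lies 792 bp from that of Hsf on the opposite strand, and replicate 1 alone listed a weak peak (signal 20.1) in the promoter of Pcl. In the 500 bp before the start of Hsf, CAATTA occurred at 4 places, 102 to 472 bp upstream, with no pooled summit among them.

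DnaJ-1 encodes an Hsp40, a J-domain protein that delivers substrates to Hsp70 and stimulates its ATPase. The gene (FBgn0263106) lies at 3L 5750029 to 5752189 on the minus strand, with Usp47, a ubiquitin-specific protease gene, running the other way from a start 784 bp away. The optimal peak at 3L 5752935 to 5753330 had a signal of 95.7, rank 2136. Its signal was 47.2 (rank 2313) in replicate 1 and 45.8 (rank 2543) in replicate 3, a difference of 1.10 times in rank. Its summit lay 944 bp upstream of DnaJ-1 and 160 bp from a start of Usp47, and both replicates placed it nearer to Usp47 (128 and 199 bp). At the start of DnaJ-1 itself there was a weak pooled peak, 20 bp upstream, with a signal of 29.7 (rank 22229; 16.6 in replicate 1 and 20.8 in replicate 3). The replicates placed this weak summit 103 bp apart, 74 bp downstream of the start in replicate 1 and 29 bp upstream in replicate 3. The heat shock element matches printed for DnaJ-1 lay 3 and 8 bp from the weak pooled summit and 927 to 932 bp from the optimal one. DnaJ-1 therefore counts as bound by position, through a peak at the start of another gene.

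Hsc70-4 encodes the main constitutive Hsp70 of the cytosol, which also uncoats clathrin vesicles. The gene (FBgn0266599) lies at 3R 15242687 to 15246614 on the plus strand and has 6 annotated starts. Its strongest peak was just short of the optimal list. With its summit 50 bp upstream of the first start, at 15242637, it had a pooled signal of 74.9 (rank 3358), where the lowest optimal signal was 84.0. The signal was 30.1 (rank 6228) in replicate 1 and 41.6 (rank 3042) in replicate 3. With the 5000 highest peaks of each replicate in place of 2697, Hsc70-4 joined the 4 bound genes as having a peak in both, though a different one in each. Replicate 1's highest peak of the gene was another, in a coding exon at 15245464 (signal 37.0, rank 3964). The pooled list had that peak at 51.4 and a further coding exon peak at 39.9.

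**Figure D3:**
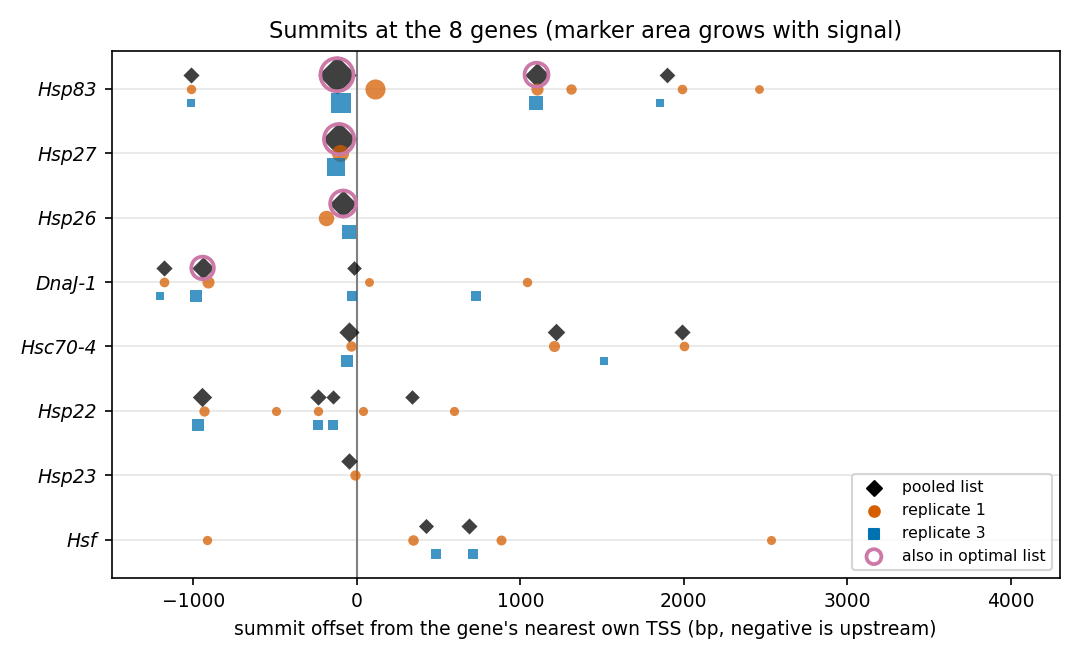
Summits of all pooled and replicate peaks at the 8 genes, by offset from the gene's nearest own TSS in bp (negative is upstream). Black diamonds are the pooled list, orange circles replicate 1 and blue squares replicate 3, marker area grows with the signal value, and rings mark the 5 optimal peaks. The rings of Hsp83, Hsp27 and Hsp26 lie 84 to 122 bp upstream of a start, a further Hsp83 ring lies 1099 bp downstream, and the DnaJ-1 ring lies 944 bp upstream.

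By position, the 5 distinct optimal peaks at the genes comprised 4 promoter peaks, within 500 bp of any protein-coding TSS, and 1 intron peak. Of the whole optimal list, 55.1% were promoter peaks and 29.5% intron peaks. Of the 19 distinct pooled peaks, 12 were in promoters, 6 in coding exons and 1 in an intron. Replicate 1's list had 25 peaks at the genes and replicate 3's 17. Coding exons held 10 of replicate 1's and 6 of replicate 3's peaks, all of them weak, and 0 of the 5 optimal peaks. Another gene's TSS was nearest to 1 of the 5 optimal peaks and to 5 of the 19 pooled peaks.

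Among genes with a peak at their start, 4 of the 8 lay above the median signal and 4 below it. Of the 13945 protein-coding genes, 7377 had a pooled peak within 500 bp of an own start, with a median signal of 52.3. Hsp83 (319), Hsp27 (251), Hsp26 (159) and Hsc70-4 (74.9) lay above it. Hsp23 (42.7), Hsp22 (41.7), Hsf (32.5) and DnaJ-1 (29.7) lay below it. Higher start peaks were found at 129 genes for Hsp83, 235 for Hsp27 and 657 for Hsp26.

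**Figure D4:**
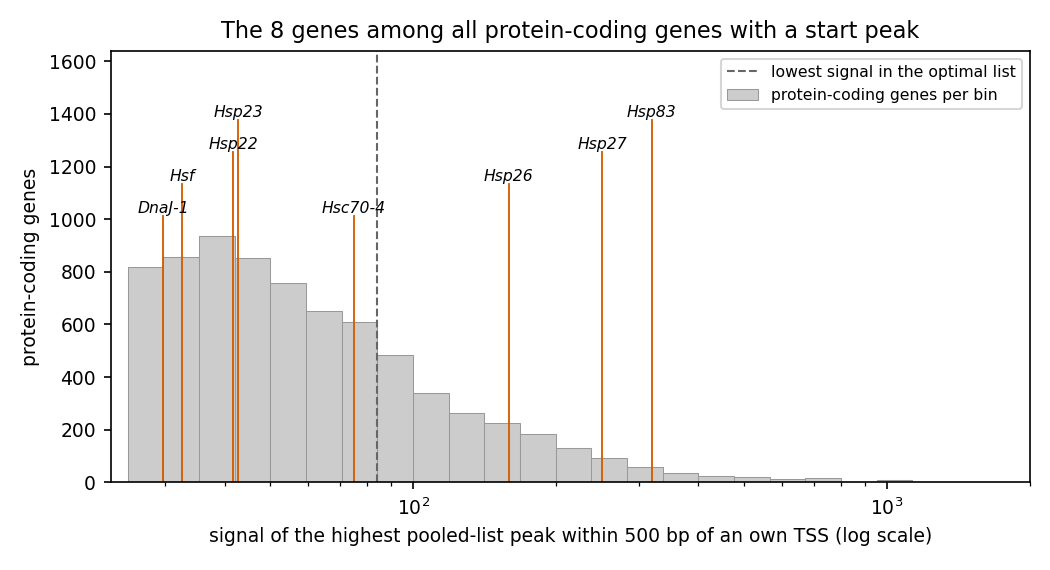
Distribution of the signal of the highest pooled peak within 500 bp of an own TSS over the 7377 protein-coding genes that have one (grey bars, genes per bin, log x axis). Orange lines mark the 8 genes and the dashed line the lowest optimal signal, 84.0. Hsp26, Hsp27 and Hsp83 lie right of the dashed line in the upper tail, and the other 5 lie left of it.

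For each bound gene, the genes with the promoter peaks most like its own in rank are named here. This likeness is one of peak height only, and whether the genes are related in function was not tested. Likeness was the sum of absolute differences in log2 rank over the optimal list and both replicates, among 1884 genes outside the 8 with an optimal summit within 500 bp of their start and a matching peak in both replicates. For Hsp83 they were Gapdh2, a glycolytic enzyme gene (sum 0.300, ranks 167, 146 and 210 in the optimal, replicate 1 and replicate 3 lists), and MED30 and Rev1, which share 1 peak (0.522). For Hsp27 they were Nacalpha, a subunit of the complex that binds nascent polypeptides (0.115), CG1635 (0.153) and CG5131 (0.186). For Hsp26 they were RpS29, a ribosomal protein gene (0.153), SREBP, a regulator of lipid synthesis (0.172), and Rack1, a ribosome-associated scaffold protein (0.219). For DnaJ-1 the nearest was Usp47 through the same peak, followed by Spc25 and grsm, which share 1 peak (0.0591).

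Other chaperone genes were bound about as often as genes in general. Of 41 further heat shock and chaperone genes, 9 (22.0%) were bound, against 19.7% of all protein-coding genes. The Hsp40 gene mrj had the highest signal, 279 (rank 241), from a peak 298 bp upstream of its start, and 3 optimal peaks in all. It was followed by stv, a BAG-family co-chaperone gene (157), the Hsp10 gene CG11267 (120), the Hsp90 co-chaperone gene Sgt1 (112) and P58IPK, an Hsp40 gene of the endoplasmic reticulum (107). Hsc70-5, the mitochondrial Hsp70, had 99.9, and Gp93, the Hsp90 of the endoplasmic reticulum, had 93.6. CG1416, an Hsp90 co-chaperone gene, had 87.9 from a peak nearest to the start of step. Hsp110, a nucleotide exchange factor gene of Hsp70, had 87.8, and its replicates disagreed, with rank 1878 in replicate 1 and 11053 in replicate 3. By the 2697 highest peaks of 1 replicate alone, Sgt1 and CG1416 were not bound in replicate 1 and Hsp110 was not bound in replicate 3.

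By role, 0 of the 7 heat-induced Hsp70 genes and 0 of the 7 further small heat shock or 67B genes were bound, against 19.7% of all protein-coding genes. The bound small heat shock genes Hsp26 and Hsp27 are among the 8 and are not in this count. The 6 near-identical Hsp70 copies had 0 pooled peaks, which is uncertain, since how reads from such copies were placed is not given. Hsp68, the remaining gene of that group, had 4 pooled peaks, the highest with a signal of 79.0 (rank 3029), just short of the optimal list. Bound genes numbered 2 of 5 constitutive or organelle Hsp70 and Hsp110 genes, 1 of 2 organelle Hsp90 genes, 1 of 5 chaperonin genes, 2 of 8 Hsp40 genes and 3 of 7 co-chaperone genes. These groups are too small for their shares, the 0 counts included, to be set apart from the share of all genes or from one another.

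Sequence features near the starts were counted in windows of 250 bp upstream to 50 bp downstream of every annotated TSS, on both strands. The strict heat shock element, 3 adjoining NGAAN units in alternating orientation with all 9 letters, was found at 1 of the 8 genes, Hsc70-4, against 0.567% of all protein-coding genes. With at least 8 of the 9 letters, an alternative chosen after seeing the data, it was found at 6 of the 8 genes, against 10.6% of all protein-coding genes. The exceptions were Hsp27, whose matches lie further upstream, and Hsf. With only the most upstream start of each gene it was found at 3 (Hsp23, Hsp26 and DnaJ-1), against 8.35%. TATAAA was found at 7 of the 8 genes, all but Hsf, against 51.2%. CAATTA was found at 5 of the 8 (Hsp83, Hsp23, Hsp27, Hsf and Hsc70-4), against 30.3%. With 500 bp upstream CAATTA was at the same 5, against 48.7%. With only the most upstream start, an alternative chosen after seeing the data, it was at 4, all but Hsc70-4 of these, against 25.2%. GAGAG was found at 4 of the 8 (Hsp22, Hsp23, Hsp26 and Hsc70-4), against 36.3%. TATCGATA was found at 2 (Hsp83 and DnaJ-1), against 10.2%, and GGTCACAC, the site of the promoter factor M1BP, at 0, against 8.71%. GAGAG matches can overlap one another, as at Hsp26, and at Hsp22 a pair of them overlaps the heat shock element match.

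CAATTA and the heat shock element were found at bound and unbound genes alike. CAATTA was near the starts of the bound genes Hsp83 and Hsp27 and of the unbound genes Hsp23, Hsf and Hsc70-4. Heat shock element matches with 8 or more letters were at the bound genes Hsp83, Hsp26 and DnaJ-1 and at the unbound genes Hsp22, Hsp23 and Hsc70-4. GAGAG was at the bound gene Hsp26 and at the unbound genes Hsp22, Hsp23 and Hsc70-4. This split depends on the window. With 500 bp upstream GAGAG was also at the bound genes Hsp83 and Hsp27, and so at 6 of the 8 genes, against 50.2% of all protein-coding genes. TATCGATA was at the bound genes Hsp83 and DnaJ-1 and at 0 of the 4 unbound genes, and lay outside the optimal peaks of both. DnaJ-1 counts as bound through the peak at the start of Usp47. Its heat shock element and TATCGATA matches counted here lay 872 to 932 bp from the summit of that peak. Within 100 bp of the summits of the 4 bound genes, TATAAA was present at 3 against 26.1% of all optimal summits. Heat shock element matches with 8 or more letters were present at 2 (Hsp83 and Hsp26) against 6.34%, and GAGAG at 2 (Hsp26 and DnaJ-1) against 27.0%. The GAGAG counted for DnaJ-1 is sequence at the start of Usp47. CAATTA was present at 1 (Hsp27) against 17.4%, and TATCGATA and GGTCACAC at 0 against 4.93% and 3.11%. A match is a run of letters, and these data do not show which of them a protein occupied.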

How the data were processed

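ChIP-seq peak lists of 1 group with 2 biological replicates (numbers 1 and 3) were used on build dm6. Per the deposited text files, each replicate has a list of peaks and background as input for IDR, a pooled list was made from both, and the optimal list holds the peaks kept after IDR thresholding. Which aligner, which peak caller and which IDR threshold were used is not given in the sources used here. The deposited signal value of each peak is the authors' own, of unstated scale; the deposited summit offset gave its position. The lists hold no read counts, so depth, and with it the precision it gives, is unknown. The dm3 lists were not used here, and 0 columns were left unmapped.

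Genes and TSSs came from Ensembl release 115 (BDGP6) and sequence from the RefSeq genome of the same build. All peaks lay within the reference chromosomes. Ranks, by signal, were set side by side only between lists of 30000. Summits were classed as promoter within 500 bp of a protein-coding TSS, otherwise by exon, intron or intergenic position. Counts used Python 3.11.15 and figures matplotlib 3.10.9; peak assignment and the motif search were checked on simulated data.

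The genes and lists were chosen with earlier results of these data known, and no test was made. Of 53 listed genes, 49 were matched, 2 of them by older symbol; l(2)tid, Hop, CHIP and Hip were not used here. The text names the 8 genes, every bound gene of the chaperone list, genes whose start is nearer to an optimal summit, and the 3 genes most like each bound gene in rank. Neighbours, the Hsp70 copies and Hsp68 are named as well, chosen after their values were seen. Alternatives to the upstream distance, the list, the start used and the motif window were tried.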

Additional observations from a re-analysis of the deposited data

How the results depend on the processing

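Across 8 alternatives 3 to 5 of the 8 genes were bound, against 11.3 to 25.7% of all protein-coding genes. Hsp83, Hsp27 and Hsp26 were bound in each of them, and leaving out replicate 3 or replicate 1 gave the same 4 genes. DnaJ-1 dropped out with summits within 500 bp of an own start only, with the nearest start only and among the optimal peaks above the median signal, which gave 3 each (13.6, 14.6 and 11.3% of all genes). With 5000 bp upstream Hsp23 was added, which gave 5 (25.7% of all genes), through the peak at Hsp26. Among the peaks above the median signal the distinct peaks at the genes numbered 3 in place of 5, and the other bound chaperone genes 2 (mrj and stv) in place of 9, where the share of all genes was 11.3% in place of 19.7%. Without replicate 3 that chaperone count was 10, with Sgt1 and CG1416 lost and DnaJ-60, DnaJ-H and Cdc37 gained, and without replicate 1 it was 8, with Hsp110 lost. The summit of Hsp83 lay 125 bp downstream of the most upstream start, in place of 122 bp upstream of the nearest (-122). The Hsp26 summit lay at -187 without replicate 3 and at -48 without replicate 1. The strict heat shock element, found at 1 gene, was found at 2 with 500 bp upstream, at 0 with the most upstream start only, and at 6 with 8 of 9 letters; the last pair were chosen after seeing the data. Of 58 alternatives in all, 44 stayed within the limits set, 13 moved and 1 changed sign. The limits for counts are wide, so that 3 or 5 bound genes in place of 4 stayed within them. For summit offsets the limit was the standard deviation of the 2 replicates' own summits. With 1 replicate left out, the values judged are these same summits, so a wider disagreement also widens the limit. For these offsets the tally is therefore no measure of stability. No paired analysis was possible because there is 1 group. Unknown depth, an unstated signal scale and 2 replicates limit every value: a gene without an optimal peak is not shown to lack the protein.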
